A study of Homo sapiens with 18 samples.

Results

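Transcripts of 10 genes grouped as brakes on the kinase ERK were followed in human HAIR-M cells, a lymphoma line of B cells (MZL, marginal zone lymphoma, in the labels). Some of the genes encode phosphatases that act more on the related kinases p38 and JNK. The genes are the dual-specificity phosphatases DUSP1, DUSP2, DUSP4, DUSP5, DUSP6 and DUSP10, the Sprouty genes SPRY1 and SPRY2, and the Sprouty-related genes SPRED1 and SPRED2. They were chosen by name, with earlier results of these data known, and matched to Ensembl identifiers. They are 10 of the 60483 genes counted. Cultures received copanlisib at 5 nM, which blocks PI3K (phosphoinositide 3-kinase), or DMSO, each for 4, 8 or 12 h. RNA sequencing of 3 libraries per group gave 6 groups and 18 libraries, all from this 1 cell line, with no other genetic change or agent named for any group. The labels do not say that replicates were separate cultures, so the spread behind each p-value may be technical.

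ERK is the last kinase of a cascade that runs from RAS through RAF and MEK, and in B cells the cascade is switched on by the antigen receptor and other surface receptors. Active ERK raises transcription of its own inhibitors: dual-specificity phosphatases remove the phosphates that activate MAP kinases, while Sprouty and SPRED proteins act further up, between receptor, RAS and RAF. For that reason mRNA levels of these genes are often read as an output of the pathway, although other signals, such as calcium and stress kinases, also drive several of them.

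The stretches just upstream of 3 of the genes are shown because these genes moved by different amounts with copanlisib: DUSP2 by the most at 4 h, DUSP1 mainly at 4 h, and SPRY2 little. Sequences are from RefSeq (GRCh38.p14), 250 bases before the annotated start of transcription, 5′ to 3′ on the gene's strand, with capitals at letters that match a searched motif. The stretch of DUSP1 is chr5:172771196-172771445 (minus strand), that of DUSP2 is chr2:96145441-96145690 (minus strand) and that of SPRY2 is chr13:80341127-80341376 (minus strand). SPRY2 has further annotated starts. Its window 1 is shown, and its windows 2 and 3 matched no searched motif.
DUSP1: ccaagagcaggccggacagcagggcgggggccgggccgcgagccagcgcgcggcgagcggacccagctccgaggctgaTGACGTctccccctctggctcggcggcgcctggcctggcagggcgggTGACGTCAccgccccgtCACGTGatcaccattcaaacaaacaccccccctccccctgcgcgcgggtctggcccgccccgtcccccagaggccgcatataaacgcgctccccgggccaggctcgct
DUSP2: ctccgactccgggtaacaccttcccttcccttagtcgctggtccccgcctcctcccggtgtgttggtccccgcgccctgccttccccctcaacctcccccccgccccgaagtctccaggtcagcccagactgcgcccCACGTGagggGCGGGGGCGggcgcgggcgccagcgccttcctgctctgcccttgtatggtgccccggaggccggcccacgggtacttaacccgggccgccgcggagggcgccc
SPRY2: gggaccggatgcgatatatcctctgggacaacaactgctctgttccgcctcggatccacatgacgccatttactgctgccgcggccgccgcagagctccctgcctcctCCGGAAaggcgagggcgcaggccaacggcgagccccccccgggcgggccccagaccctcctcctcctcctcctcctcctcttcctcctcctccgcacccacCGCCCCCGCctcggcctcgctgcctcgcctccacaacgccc
In DUSP1 the capitals mark the CRE-type letters TGACGT at −172 and again, on both strands of an overlapping palindrome, at −125 and −123, and the E-box CACGTG at −108, counted from the start. In DUSP2 they mark an E-box at −113 and the EGR-type letters GCGGGGGCG at −103. The SPRY2 stretch holds the ETS-type letters CCGGAA at −142 and, on the other strand, the EGR-type letters at −41. Motifs were searched on both strands of windows of 300 bases (250 before and 50 after the start). Of 34943 such windows in the RefSeq table, 7.97% held the CRE-type letters, 7.23% the E-box, 5.06% the EGR-type letters and 17.2% the ETS-type letters. Of the 10 genes, 8 had at least 1 window there, 13 windows in all: 2 genes had the CRE-type letters, 2 the E-box, 3 the EGR-type letters, 2 the ETS-type letters, 1 the AP-1-type letters TGANTCA and 3 the inverted CCAAT letters ATTGG, while GTAAACA (FOXO-type) and the CArG box matched in none. The last 4 motifs occurred in 7.72%, 34.6%, 3.42% and 1.30% of all windows. The counts are of genes with a match in any of their windows, and the shares are of single windows. A gene with more than 1 window has more room for a match, so counts and shares are not on the same footing. A match of letters is a description and not evidence of binding.

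Each library held 13587017 to 25566761 reads assigned to genes, and all 10 genes passed the filter on low counts, as did 16122 genes in all. Replicates 1 and 2 of the copanlisib group at 4 h differed from the rest: 5.22% to 8.73% of their reads were unmapped and 12.4% to 12.6% of their gene reads were mitochondrial, against 1.74% to 2.82% unmapped and 9.07% to 10.5% mitochondrial in the other 16 libraries. Set against replicate 3, their counts gave chi-square values per gene of 19.9 and 15.8, while the other 16 replicate pairs gave 1.52 to 2.94 (sampling noise gives 1). Calls at 4 h of the genes named here that changed with replicate 3 as the only copanlisib library are given both ways. That fit assumes that a lone library varies like those of the other groups. Its p-values and counts do not measure the spread among copanlisib libraries at 4 h. The labelled cell type was matched by its markers: all 6 B cell markers were detected, with a summed level of 1357 to 1999 CPM (gene reads scaled to a common library size), against 2.74 to 3.66 CPM for 8 retina markers, the tissue named in the extraction protocol of the labels. Of the retina markers, NRL held most of the sum, at 2.52 to 3.45 CPM with reads in all 18 libraries, and ARR3 was at 0 in every library. The summed B cell markers lay at 1426 to 1499 CPM with copanlisib and 1357 to 1384 CPM with DMSO at 4 h. At 8 h they lay at 1641 to 1678 CPM with copanlisib and 1447 to 1486 CPM with DMSO. At 12 h they lay at 1951 to 1999 CPM with copanlisib and 1640 to 1653 CPM with DMSO. Of the other lists, 8 T and NK cell markers summed to 7.52 to 17.4 CPM, and 6 myeloid markers to 4.37 to 9.70 CPM. NKG7 held most of the T and NK cell sum, at 7.16 to 16.9 CPM with reads in all 18 libraries, while CD3D and CD3G were at 0 throughout. The 6 stroma and epithelium markers summed to 76.4 to 80.5 CPM with copanlisib at 8 and 12 h and 51.7 to 60.2 CPM with DMSO at those times. At 4 h the groups overlapped, at 55.2 to 68.0 CPM with copanlisib and 57.6 to 61.9 CPM with DMSO. KRT18 (18.7 to 29.2 CPM), COL1A1 (12.7 to 27.5 CPM) and KRT8 (12.6 to 20.8 CPM) held most of this sum. The part of these marker shifts in the results was not tested, and in RNA from a whole culture fewer cells of a type and less RNA per cell cannot be told apart.

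Per kilobase of exon (lengths from GENCODE 29), DUSP2 was at the top with a mean of 125.9 CPM per kb over the 18 libraries (57.1 to 214). DUSP5 averaged 24.7 CPM per kb (16.9 to 38.7), SPRY2 16.5 (14.1 to 19.6), DUSP1 9.88 (5.47 to 17.3) and DUSP4 7.97 (4.85 to 10.6). Below them came SPRED2 at 3.71 CPM per kb (2.74 to 4.71), DUSP10 at 2.33 (1.12 to 3.83), SPRY1 at 2.00 (1.34 to 2.4999) and SPRED1 at 1.87 (1.21 to 2.41). DUSP6, a phosphatase often used as a readout of ERK, was the least abundant at 0.66 CPM per kb (0.42 to 0.96), with 35 to 89 reads per library. Neighbours in this order had overlapping ranges over the libraries from DUSP5 to SPRY2, DUSP1 and DUSP4, and again from SPRED2 to DUSP10, SPRY1 and SPRED1. DUSP5 also overlapped with DUSP1. DUSP4 did not reach up to SPRY2 or down to SPRED2. SPRED2 lay above SPRY1 and SPRED1 in every library. The ranges of DUSP2 and DUSP6 overlapped with no other member.

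**Figure D1:**
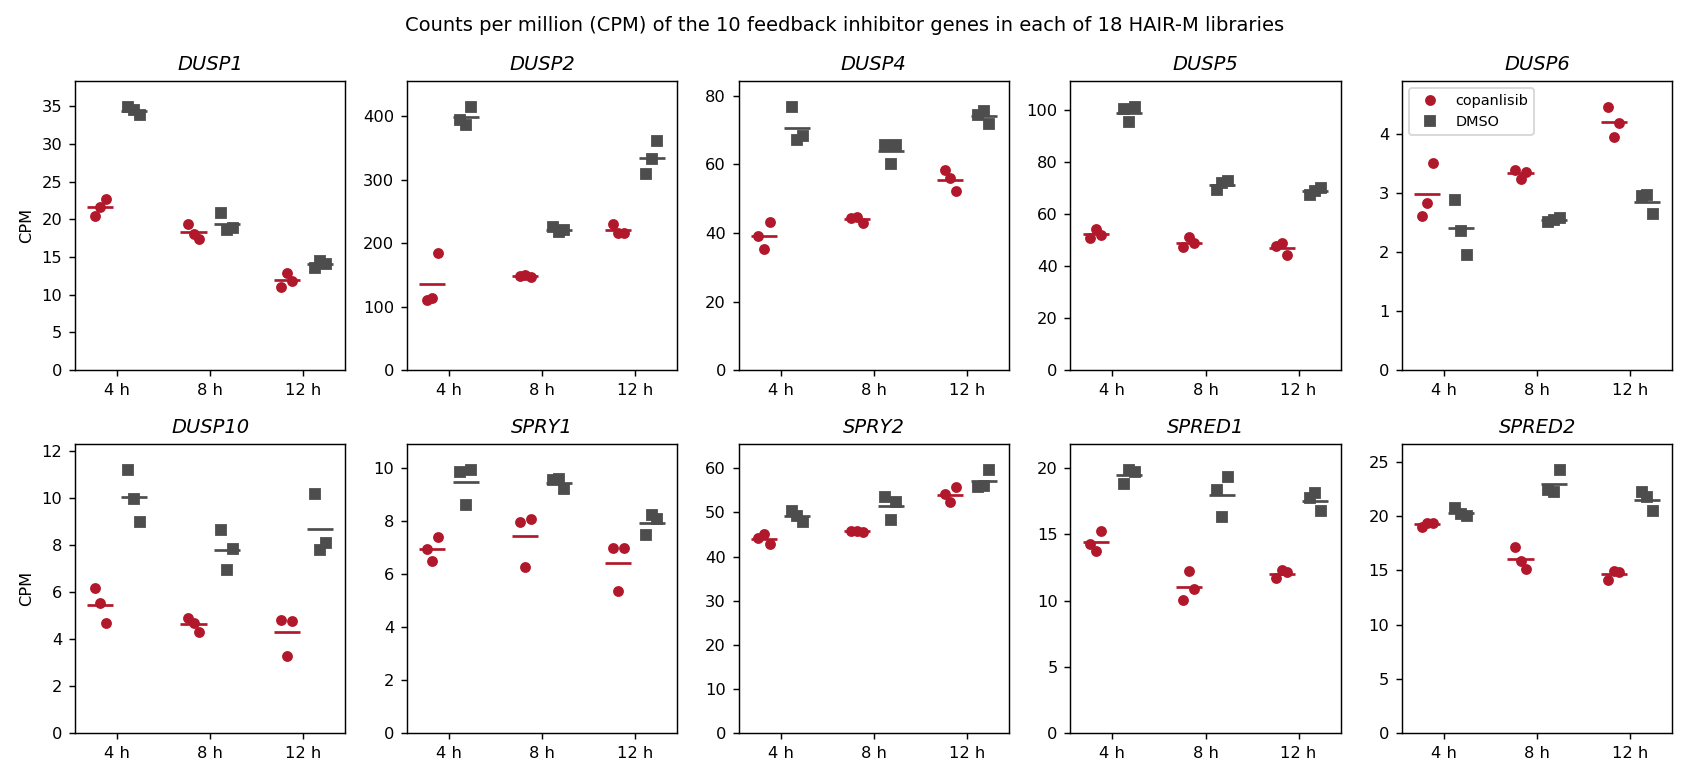
Level of each gene in CPM (vertical axis, from 0) in every library at 4, 8 and 12 h, with copanlisib as red circles left of DMSO as grey squares and a bar at the mean of 3 libraries. DUSP2 with copanlisib at 4 h lay between 110 and 184 CPM, against 387 to 414 CPM with DMSO, while DUSP6 at 12 h lay higher with copanlisib.

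Most of these inhibitors were lower with copanlisib, while DUSP6 was called higher at 8 and 12 h. Its call at 8 h was lost in 11 of 12 alternatives. At 4 h, 8 of the 10 genes were lower, 0 higher and 2 not called (edgeR's quasi-likelihood test, Benjamini-Hochberg adjusted p under 0.05 over all 16122 genes), where 20.7% of all genes tested were called lower and 17.7% higher. The count higher at 4 h was also 0 at an unadjusted p under 0.05 and 0 by DESeq2. In the fit with replicate 3 as the lone copanlisib library at 4 h, 7 of the 10 genes and 2272 of all genes were lower, and 0 and 1506 were higher. At 8 h, 8 were lower, 1 higher and 1 not called, against 18.3% and 14.8% of all genes. At 12 h, 7 were lower, 1 higher and 2 not called, against 16.5% and 13.8%. The count higher lay near these shares at 8 and 12 h, and no result is read from it. The median log2 fold change (copanlisib over DMSO) of the 10 genes was −0.56, −0.53 and −0.48 at 4, 8 and 12 h, and that of all genes tested 0.01, 0.02 and 0.00. DUSP2, DUSP4, DUSP5, DUSP10 and SPRED1 were called lower at all 3 times, which held for 8.32% of all genes. Every copanlisib library was below every DMSO library for 9, 8 and 9 of the 10 genes at 4, 8 and 12 h, where this held for 19.9%, 26.2% and 24.1% of all genes tested. The reverse held for DUSP6 at 8 and 12 h and for 24.5% and 21.9% of all genes.

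**Figure D2:**
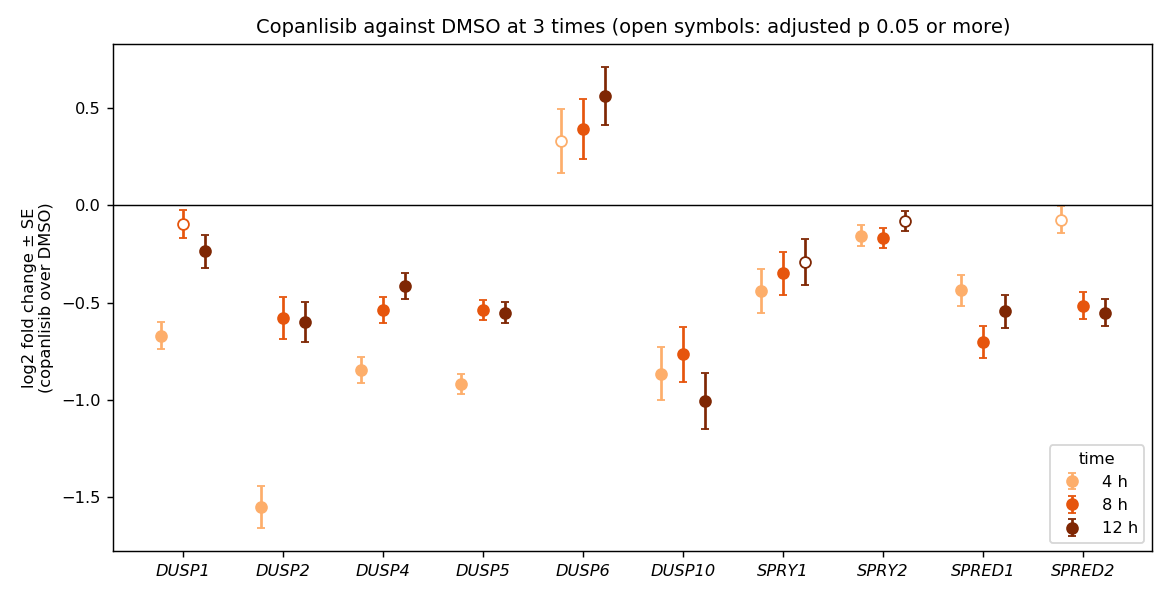
Log2 fold change of copanlisib over DMSO (vertical axis) with its standard error for each gene at 4, 8 and 12 h; filled symbols have an adjusted p under 0.05. DUSP2 at 4 h had the lowest value, −1.55, and all 3 values of DUSP6 lay above 0.

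DUSP2, a nuclear phosphatase of activated lymphocytes, had the largest change among the 10 at 4 h, while at 8 h DUSP10 and SPRED1 and at 12 h DUSP10 had larger ones. These rankings are descriptions, since the differences between genes were not tested. At 4 h it measured 110, 114 and 184 CPM with copanlisib and 394, 387 and 414 CPM with DMSO. At 8 h the values were 148, 150 and 147 CPM with copanlisib and 226, 217 and 221 CPM with DMSO, and at 12 h they were 230, 216 and 216 CPM with copanlisib and 309, 332 and 361 CPM with DMSO. Every copanlisib library was below every DMSO library of its time, and at 4 h replicate 3 was nearer to DMSO than the replicates with more unmapped reads. DUSP2 (ENSG00000158050.4, chromosome 2, 96143166 to 96145440, minus strand) fell by 1.55 ± 0.11 on the log2 scale at 4 h (SE, edgeR adjusted p = 2.1e-11). It fell by 0.58 ± 0.11 at 8 h (edgeR adjusted p = 1.2e-04) and by 0.60 ± 0.10 at 12 h (edgeR adjusted p = 7.3e-05). In the fit with replicate 3 alone at 4 h, its log2 fold change was −1.11, close to that of DUSP10 in the same fit (−1.08). That fit holds no measure of the spread among copanlisib libraries at 4 h.

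DUSP5, a nuclear phosphatase selective for ERK, was lower at each time. At 4 h it stood at 51.0, 54.2 and 52.1 CPM with copanlisib and 100, 95.4 and 101 CPM with DMSO. Copanlisib libraries held 47.3, 51.1 and 48.9 CPM at 8 h, against 69.2, 71.9 and 72.9 CPM with DMSO, and 47.7, 49.0 and 44.3 CPM at 12 h, against 67.3, 69.0 and 70.1 CPM with DMSO. Groups did not overlap at any time, and the copanlisib libraries of all 3 times shared a narrow range while DMSO was highest at 4 h. The gene (ENSG00000138166.5, chromosome 10, 110497838 to 110511544, plus strand) fell by 0.92 ± 0.05, 0.54 ± 0.05 and 0.55 ± 0.05 on the log2 scale at 4, 8 and 12 h (SE, edgeR adjusted p = 4.1e-13, 8.0e-09 and 8.7e-09).

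DUSP4, a nuclear phosphatase of ERK and JNK, was also lower at each time. With copanlisib it was at 39.2, 35.2 and 43.2 CPM at 4 h, against 76.7, 67.1 and 68.2 CPM with DMSO. At 8 h it was at 44.5, 44.7 and 42.9 CPM with copanlisib, against 65.7, 60.3 and 65.7 CPM with DMSO, and at 12 h at 58.2, 56.0 and 52.3 CPM with copanlisib, against 74.5, 75.6 and 71.8 CPM with DMSO. No copanlisib library reached the lowest DMSO library of its time, and copanlisib levels were highest at 12 h. DUSP4 (ENSG00000120875.7) fell by 0.85 ± 0.07, 0.54 ± 0.07 and 0.41 ± 0.07 on the log2 scale at the 3 times (SE, edgeR adjusted p = 2.3e-10, 4.1e-07 and 1.9e-05).

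DUSP1, an immediate early phosphatase that acts mainly on p38 and JNK, fell at 4 h. Copanlisib libraries held 20.4, 21.7 and 22.7 CPM at 4 h, and DMSO libraries 34.8, 34.5 and 33.8 CPM. At 8 h there were 19.4, 18.04 and 17.4 CPM with copanlisib and 20.8, 18.6 and 18.8 CPM with DMSO, and at 12 h 11.04, 12.9 and 11.8 CPM with copanlisib and 13.5, 14.5 and 14.1 CPM with DMSO. The groups overlapped at 8 h and not at 4 or 12 h, and both treatments were lowest at 12 h. DUSP1 (ENSG00000120129.5, chromosome 5, 172768090 to 172771195, minus strand) fell by 0.67 ± 0.07 on the log2 scale at 4 h (SE, edgeR adjusted p = 1.8e-08). Its log2 fold change at 8 h was −0.10 ± 0.07 (edgeR adjusted p = 0.33, interval at 95% −0.25 to 0.05). It fell by 0.24 ± 0.08 at 12 h (edgeR adjusted p = 0.030), a call that was lost without copanlisib replicate 1 (−0.19, edgeR adjusted p = 0.14), copanlisib replicate 3 (−0.23, 0.077), DMSO replicate 2 (−0.21, 0.10) or DMSO replicate 3 (−0.23, 0.072), and by DESeq2 (adjusted p = 0.054). In all, 6 of 12 alternatives lost this call. An annotated gene on the opposite strand, ENSG00000253736, overlaps DUSP1, and the counts used are those of 1 strand.

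DUSP10, a phosphatase that prefers p38 and JNK to ERK, was lower at each time. At 4 h it measured 6.16, 5.52 and 4.68 CPM with copanlisib and 11.2, 9.93 and 8.98 CPM with DMSO. At 8 h it measured 4.89, 4.68 and 4.28 CPM with copanlisib and 8.62, 6.90 and 7.79 CPM with DMSO, and at 12 h 4.78, 3.26 and 4.77 CPM with copanlisib and 10.1, 7.77 and 8.06 CPM with DMSO. The groups were separate at all times. The fall on the log2 scale was 0.86 ± 0.14, 0.77 ± 0.14 and 1.00 ± 0.15 at 4, 8 and 12 h (DUSP10, ENSG00000143507.16, chromosome 1, 221701424 to 221742176, minus strand; SE, edgeR adjusted p = 1.3e-05, 1.1e-04 and 5.8e-06).

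DUSP6, the cytoplasmic phosphatase selective for ERK, moved the other way. It was at 2.62, 2.83 and 3.51 CPM with copanlisib and 2.89, 2.37 and 1.96 CPM with DMSO at 4 h. At 8 h the libraries held 3.40, 3.25 and 3.37 CPM with copanlisib and 2.52, 2.54 and 2.57 CPM with DMSO, and at 12 h 4.46, 3.95 and 4.20 CPM with copanlisib and 2.95, 2.98 and 2.65 CPM with DMSO. The groups overlapped at 4 h, while at 8 and 12 h every copanlisib library was higher. DUSP6 (ENSG00000139318.7, chromosome 12, 89347232 to 89353271, minus strand) rose by 0.56 ± 0.15 on the log2 scale at 12 h (SE, edgeR adjusted p = 0.0049), and the call held under all 12 alternatives tried, with adjusted p between 0.0038 and 0.030. At 8 h the log2 fold change was 0.39 ± 0.15 (edgeR adjusted p = 0.0499), which was past the threshold in 1 of 12 alternatives and not when any of the 6 libraries of that time was left out (0.38 to 0.42, edgeR adjusted p = 0.072 to 0.12). At 4 h it was 0.33 ± 0.16 (edgeR adjusted p = 0.11, interval at 95% −0.0050 to 0.66), and 0.57 ± 0.23 with replicate 3 alone (edgeR adjusted p = 0.068). ENSG00000274021, annotated on the opposite strand, overlaps the gene. In counts without strand the log2 fold changes of DUSP6 were 0.30, 0.39 and 0.59 at 4, 8 and 12 h.

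SPRY1 and SPRY2, the Sprouty genes, were lower at 4 and 8 h. SPRY1 was at 6.93, 6.46 and 7.39 CPM with copanlisib and 9.84, 8.57 and 9.91 CPM with DMSO at 4 h. It was at 7.95, 6.24 and 8.06 CPM with copanlisib and 9.55, 9.57 and 9.19 CPM with DMSO at 8 h, and at 6.95, 5.33 and 6.95 CPM with copanlisib and 7.47, 8.20 and 8.06 CPM with DMSO at 12 h. Its groups did not overlap, and the gap was smallest at 12 h. SPRY1 (ENSG00000164056.9, chromosome 4, 123396795 to 123403760, plus strand) fell by 0.44 ± 0.11 on the log2 scale at 4 h (SE, edgeR adjusted p = 0.0031) and by 0.35 ± 0.11 at 8 h (edgeR adjusted p = 0.015), and its value at 12 h was −0.29 ± 0.12 (edgeR adjusted p = 0.066). With replicate 3 alone at 4 h it was −0.34 ± 0.15 (edgeR adjusted p = 0.11), and the call at 8 h was lost without copanlisib replicate 2 (−0.23, edgeR adjusted p = 0.13) or DMSO replicate 1 (−0.33, 0.060).

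SPRY2 measured 44.2, 45.04 and 42.8 CPM with copanlisib and 50.3, 49.2 and 47.9 CPM with DMSO at 4 h. At 8 h it measured 45.7, 45.9 and 45.7 CPM with copanlisib and 53.5, 48.3 and 52.3 CPM with DMSO, and at 12 h 54.1, 52.4 and 55.7 CPM with copanlisib and 55.8, 56.1 and 59.6 CPM with DMSO. Copanlisib libraries were below DMSO libraries at each time by a small margin. Both treatments were highest at 12 h. The gene (ENSG00000136158.9, chromosome 13, 80335976 to 80340951, minus strand) fell by 0.16 ± 0.05 and 0.17 ± 0.05 on the log2 scale at 4 and 8 h (SE, edgeR adjusted p = 0.023 and 0.016), and its value at 12 h was −0.08 ± 0.05 (edgeR adjusted p = 0.27, interval at 95% −0.19 to 0.03). Calls of SPRY2 at 4 h were lost without DMSO replicate 1 (−0.14, edgeR adjusted p = 0.074) or DMSO replicate 2 (−0.15, 0.066), and those at 8 h without DMSO replicate 1 (−0.13, 0.12) or DMSO replicate 3 (−0.16, 0.055). With no filter on low counts, neither was called (edgeR adjusted p = 0.13 and 0.12). In all, the SPRY2 call was lost in 4 of 13 alternatives at 4 h and in 3 of 12 at 8 h.

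SPRED1 and SPRED2, which bind neurofibromin and hold RAS and RAF back at the membrane, were both lower, SPRED1 at all 3 times and SPRED2 at 8 and 12 h. SPRED1 was at 14.3, 13.7 and 15.3 CPM with copanlisib and 18.8, 19.9 and 19.7 CPM with DMSO at 4 h. It was at 10.0, 12.2 and 10.9 CPM with copanlisib and 18.4, 16.3 and 19.3 CPM with DMSO at 8 h, and at 11.7, 12.3 and 12.1 CPM with copanlisib and 17.7, 18.2 and 16.8 CPM with DMSO at 12 h. All copanlisib libraries were lower than all DMSO libraries, and SPRED1 (ENSG00000166068.11, chromosome 15, 38252326 to 38357249, plus strand) fell by 0.44 ± 0.08, 0.70 ± 0.08 and 0.54 ± 0.08 on the log2 scale at 4, 8 and 12 h (SE, edgeR adjusted p = 9.9e-05, 1.9e-07 and 1.4e-05).

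For SPRED2 the values at 4 h were 19.01, 19.4 and 19.4 CPM with copanlisib and 20.7, 20.2 and 20.03 CPM with DMSO. At 8 h they were 17.1, 15.9 and 15.1 CPM with copanlisib and 22.4, 22.2 and 24.3 CPM with DMSO, and at 12 h 14.1, 15.0 and 14.9 CPM with copanlisib and 22.2, 21.7 and 20.5 CPM with DMSO. The groups did not overlap at any time, but at 4 h the gap was small. Log2 fold changes of SPRED2 (ENSG00000198369.8, chromosome 2, 65310851 to 65432637, minus strand) were −0.07 ± 0.07 at 4 h (SE, edgeR adjusted p = 0.42, interval at 95% −0.21 to 0.07), −0.52 ± 0.07 at 8 h (edgeR adjusted p = 1.2e-06) and −0.55 ± 0.07 at 12 h (edgeR adjusted p = 9.9e-07). ENSG00000232693, annotated on the same strand, overlaps SPRED2, and strand does not separate their reads. The part of this overlap in the counts was not tested.

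Whether the effect of copanlisib differed between times was tested as a difference of log2 fold changes, in which both comparisons use the same 4 h libraries. For 8 h minus 4 h, 4 of the 10 genes had a less negative effect later and 1 a more negative one. Of all genes, 9.29% were called with a positive difference and 9.86% with a negative one, whatever the sign of their effects. For 12 h minus 4 h the counts were again 4 and 1, where 8.98% and 7.69% of all genes were called. The effect on DUSP2 differed by 0.97 ± 0.15 (SE, edgeR adjusted p = 2.7e-04) between 8 and 4 h and by 0.95 ± 0.15 between 12 and 4 h (edgeR adjusted p = 1.6e-04). For replicate 3 alone at 4 h these were 0.52 and 0.51. For DUSP5 the differences were 0.38 ± 0.07 and 0.36 ± 0.07 (edgeR adjusted p = 0.0015 and 0.0016), and with replicate 3 alone 0.38 and 0.37.

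DUSP1, DUSP4 and SPRED2 made up the rest of those calls. The DUSP1 effect differed by 0.57 ± 0.10 between 8 and 4 h (SE, edgeR adjusted p = 6.6e-04) and by 0.43 ± 0.11 between 12 and 4 h (edgeR adjusted p = 0.0074), the second of which was 0.35 with replicate 3 alone (edgeR adjusted p = 0.084). For DUSP4 they were 0.31 ± 0.09 (edgeR adjusted p = 0.024) and 0.43 ± 0.09 (edgeR adjusted p = 0.0028), and with replicate 3 alone 0.15 and 0.28 (edgeR adjusted p = 0.46 and 0.057). The DUSP4 difference between 8 and 4 h also missed the threshold without copanlisib 4 h replicate 2 (0.23, edgeR adjusted p = 0.11), DMSO 4 h replicate 1 (0.25, 0.069), copanlisib 8 h replicate 1 (0.30, 0.053), copanlisib 8 h replicate 2 (0.29, 0.063) or DMSO 8 h replicate 2 (0.27, 0.076). SPRED2 differed the other way, by −0.44 ± 0.10 and −0.48 ± 0.10 (edgeR adjusted p = 0.0034 and 0.0019), and by −0.46 and −0.49 with replicate 3 alone. SPRED1 was not called at −0.26 ± 0.11 for 8 h minus 4 h (edgeR adjusted p = 0.11), and it was called at −0.35 without copanlisib 8 h replicate 2 (edgeR adjusted p = 0.049). Intervals of the uncalled differences were wide for the low genes: that of DUSP10 for 8 h minus 4 h ran from −0.30 to 0.50 at 95%, and that of DUSP6 from −0.40 to 0.53.

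**Figure D3:**
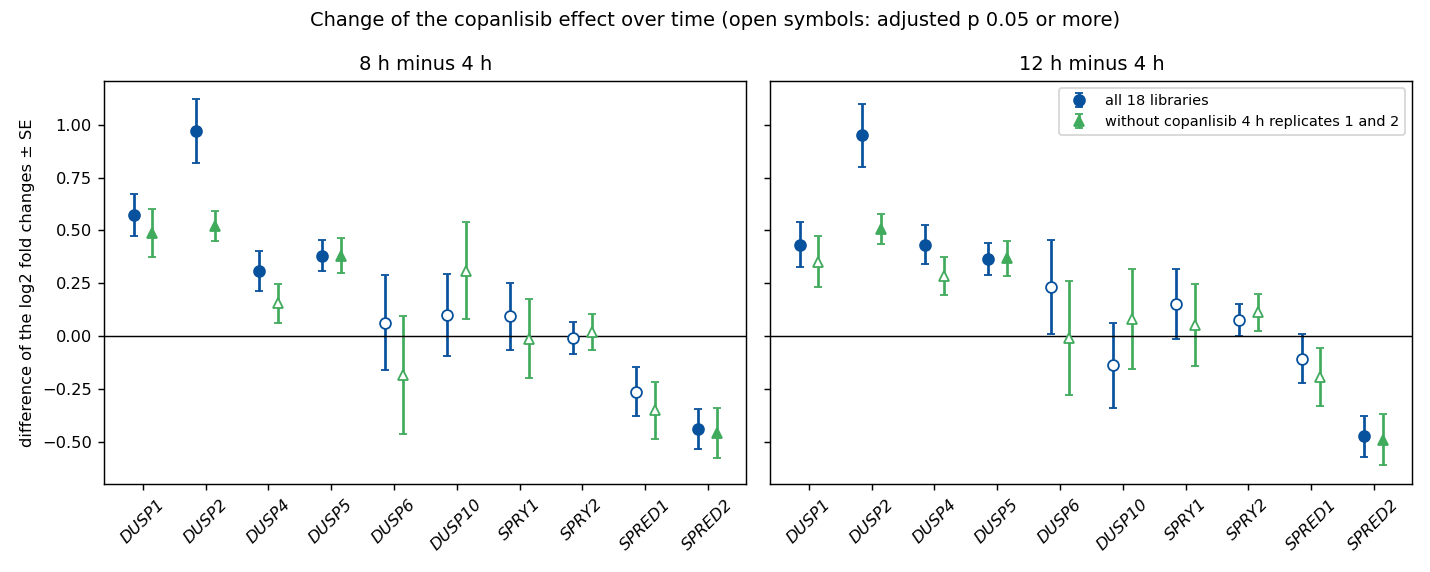
Difference of the copanlisib effect between times (vertical axis, difference of log2 fold changes with its standard error), 8 h minus 4 h on the left and 12 h minus 4 h on the right, with all 18 libraries (circles) and without replicates 1 and 2 of copanlisib at 4 h (triangles); filled symbols have an adjusted p under 0.05. For 8 h minus 4 h, DUSP2 was at 0.52 without these libraries and 0.97 with all, and SPRED2 stayed below 0 in both panels.

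Levels of single genes also moved over time within a treatment, and these comparisons share libraries with those between treatments. No result about the 10 genes as a group is read from the counts over time. Between 12 h and 4 h of DMSO, 3 of the 10 genes were lower and 1 higher, where 25.4% and 23.2% of all genes were. In DMSO, DUSP1 averaged 14.03 ± 0.51 CPM at 12 h and 34.4 ± 0.5 CPM at 4 h (SD, n = 3 each), a fall of 1.29 ± 0.07 on the log2 scale (SE, edgeR adjusted p = 1.9e-13). DUSP5 fell by 0.52 ± 0.05 (edgeR adjusted p = 3.4e-09). SPRY2 rose by 0.22 ± 0.05 (edgeR adjusted p = 0.0012), and DUSP2 fell by 0.25 ± 0.10 (edgeR adjusted p = 0.046). The DUSP2 call in DMSO was lost when any of 5 libraries was left out (4 h replicates 1, 2 and 3 and 12 h replicates 1 and 2; −0.26 to −0.20, edgeR adjusted p = 0.079 to 0.18). With other changes of processing counted too, it was lost in 8 of 11 alternatives.

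Between 12 h and 4 h of copanlisib, 4 genes were lower and 4 higher, where 26.3% and 25.6% of all genes were. DUSP2 rose by 0.70 ± 0.11 (SE, edgeR adjusted p = 5.2e-06), DUSP4 by 0.50 ± 0.07 (edgeR adjusted p = 7.8e-07), DUSP6 by 0.50 ± 0.14 (edgeR adjusted p = 0.0051) and SPRY2 by 0.30 ± 0.05 (edgeR adjusted p = 4.3e-05). DUSP1 fell by 0.86 ± 0.08 (edgeR adjusted p = 8.4e-10), SPRED2 by 0.39 ± 0.07 (edgeR adjusted p = 4.1e-05), SPRED1 by 0.26 ± 0.08 (edgeR adjusted p = 0.012) and DUSP5 by 0.16 ± 0.05 (edgeR adjusted p = 0.014). Against replicate 3 alone at 4 h, DUSP2 was at 0.27 and DUSP4 at 0.37. In that fit DUSP6 was at 0.27 and DUSP5 at −0.15, and neither DUSP6 nor DUSP5 was called. DUSP5 was not called without 4 h replicate 2 (−0.14, edgeR adjusted p = 0.071) or 12 h replicate 3 (−0.12, 0.10), and DUSP10, at −0.34 with an edgeR adjusted p of 0.067, was called without 4 h replicate 3 (−0.43, 0.015).

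Close relatives of the 10 genes were counted from a list of 7 (DUSP7, DUSP8, DUSP9, DUSP16, SPRY3, SPRY4 and SPRED3), of which 5 were tested. At 4, 8 and 12 h, 5, 3 and 1 of them were lower and 0 higher, with a median log2 fold change of −0.54, −0.25 and −0.14. At an unadjusted p under 0.05 the counts higher were 0, 1 and 0, and DESeq2 called 0 higher at each time. Replicate 3 alone at 4 h gave 3 of the 5 lower, with a median of −0.28. SPRY4, a further Sprouty gene, averaged 13.6 ± 1.2 CPM with copanlisib and 28.8 ± 1.7 CPM with DMSO at 4 h (SD, n = 3 each) and fell by 1.09 ± 0.07, 0.61 ± 0.07 and 0.52 ± 0.07 on the log2 scale at the 3 times (SE, edgeR adjusted p = 1.0e-11, 1.4e-07 and 1.5e-06). DUSP8, a phosphatase of p38 and JNK, fell by 1.45 ± 0.16 at 4 h (edgeR adjusted p = 6.9e-08). Its values at 8 and 12 h were −0.42 ± 0.23 and −0.52 ± 0.21 (edgeR adjusted p = 0.16 and 0.061). DUSP16, which prefers JNK, fell by 0.25 ± 0.05 at both 4 and 8 h (edgeR adjusted p = 8.0e-05 and 9.2e-05) and was at 0.0084 ± 0.05 at 12 h (edgeR adjusted p = 0.92). Of 12 atypical dual-specificity phosphatases 11 were tested, and 4, 4 and 2 were lower and 2, 1 and 3 higher, or 3 and 2 at 4 h with replicate 3 alone. The shares of all genes called lower were 20.7%, 18.3% and 16.5% at 4, 8 and 12 h and those called higher 17.7%, 14.8% and 13.8%. No result about this list is read from its counts. DUSP14, which acts on the adaptor TAB1 in T cells, fell by 1.21 ± 0.06, 0.78 ± 0.06 and 0.90 ± 0.06, and DUSP3 by 0.47 ± 0.06, 0.63 ± 0.06 and 0.53 ± 0.06, while DUSP22, a phosphatase that restrains LCK in T cells, rose by 0.23 ± 0.04, 0.29 ± 0.04 and 0.29 ± 0.04 (edgeR adjusted p at most 3.9e-05 for these 3 genes).

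The kinases that the phosphatases act on, and the steps above them, were called in both directions, except that 0 p38 and JNK pathway kinases were higher at 8 h. The counts of the RAS to ERK list lay near the shares of all genes just given. Of 21 genes of the RAS to ERK cascade 20 were tested, and at 4, 8 and 12 h 4, 4 and 2 were lower and 5, 5 and 4 higher, with a median log2 fold change of 0.01, −0.02 and 0.00. Replicate 3 alone at 4 h gave 1 lower and 5 higher. MAPK3, an ERK kinase, averaged 102 ± 9.6 CPM with copanlisib and 101 ± 4.0 CPM with DMSO at 4 h (SD, n = 3 each; edgeR adjusted p = 0.86). It was called higher at 4 h with replicate 3 alone (0.15 ± 0.06, edgeR adjusted p = 0.045). It rose by 0.17 ± 0.06 at 8 h (edgeR adjusted p = 0.022), and its value at 12 h was 0.09 ± 0.06 (edgeR adjusted p = 0.22). RASGRP3, a RAS activator of B cells, rose by 0.63 ± 0.05, 0.32 ± 0.05 and 0.26 ± 0.05 at the 3 times, and SOS2, another RAS activator, by 0.58 ± 0.07, 0.33 ± 0.07 and 0.22 ± 0.07 (edgeR adjusted p at most 0.014 for these values). RASGRP2 rose by 0.87 ± 0.11 at 8 h and 0.67 ± 0.10 at 12 h (edgeR adjusted p = 4.5e-07 and 1.3e-05). Its value at 4 h was 0.07 ± 0.11 (edgeR adjusted p = 0.68), and with replicate 3 alone it was called at 0.36 ± 0.12 (edgeR adjusted p = 0.022). Of 11 p38 and JNK pathway kinases, 4, 5 and 3 were lower and 2, 0 and 1 higher. Of all genes tested, 20.7%, 18.3% and 16.5% were lower and 17.7%, 14.8% and 13.8% higher at these times. MAPK13, a p38 kinase, fell by 0.29 ± 0.05, 0.24 ± 0.05 and 0.25 ± 0.05 at the 3 times, and MAP2K3, which activates p38, fell by 0.52 ± 0.07, 0.21 ± 0.06 and 0.17 ± 0.07 (edgeR adjusted p at most 0.045 for these values). For 8 h, 1 was higher at an unadjusted p under 0.05 and 0 by DESeq2, and replicate 3 alone at 4 h gave 6 lower and 1 higher. MAPK14, the main p38 kinase, rose by 0.32 ± 0.05 at 4 h (edgeR adjusted p = 2.3e-05). Its values at 8 and 12 h were 0.08 ± 0.05 and 0.07 ± 0.05 (edgeR adjusted p = 0.21 and 0.37).

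Genes commonly induced by ERK, taken from a list without its inhibitors, were mostly lower. Of 18 listed 16 were tested, and at 4, 8 and 12 h 13, 12 and 11 were lower and 1, 0 and 0 higher, with median log2 fold changes of −0.83, −0.57 and −0.62. The gene higher at 4 h, named after its value was seen, was ETV5 (0.15 ± 0.06, edgeR adjusted p = 0.048), and DESeq2 called 0 higher at any time. The counts higher at an unadjusted p under 0.05 were 1, 0 and 0. Of all genes tested, 20.7%, 18.3% and 16.5% were called lower at 4, 8 and 12 h, and 17.7%, 14.8% and 13.8% higher. Replicate 3 alone at 4 h gave 11 lower and 0 higher, with a median of −0.70. EGR3, an immediate early transcription factor, averaged 18.6 ± 3.0 CPM with copanlisib and 66.9 ± 3.8 CPM with DMSO at 4 h (SD, n = 3 each) and fell by 1.84 ± 0.08, 1.72 ± 0.09 and 1.44 ± 0.09. FOSL1, an AP-1 subunit, fell by 1.80 ± 0.09, 1.12 ± 0.10 and 1.44 ± 0.10, and EGR1 by 1.48 ± 0.09, 1.53 ± 0.10 and 1.25 ± 0.10 (edgeR adjusted p at most 1.0e-09 for these values). Among 14 other brakes on RAS and ERK, 4, 2 and 3 were lower and 2, 1 and 1 higher (3 and 1 with replicate 3 alone at 4 h), with medians of −0.10, −0.0026 and 0.01. The counts of these other brakes lay near the shares of all genes, and no result about the list is read from them. CBLB, a ubiquitin ligase that limits antigen receptor signalling, rose by 0.90 ± 0.07, 0.40 ± 0.07 and 0.42 ± 0.07. PEA15, which holds ERK in the cytoplasm, fell by 0.51 ± 0.05, 0.52 ± 0.05 and 0.17 ± 0.05, and DOK3, an adaptor that damps B cell receptor signalling, by 0.48 ± 0.06, 0.24 ± 0.06 and 0.18 ± 0.07 (edgeR adjusted p at most 0.037 for CBLB, PEA15 and DOK3).

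**Figure D4:**
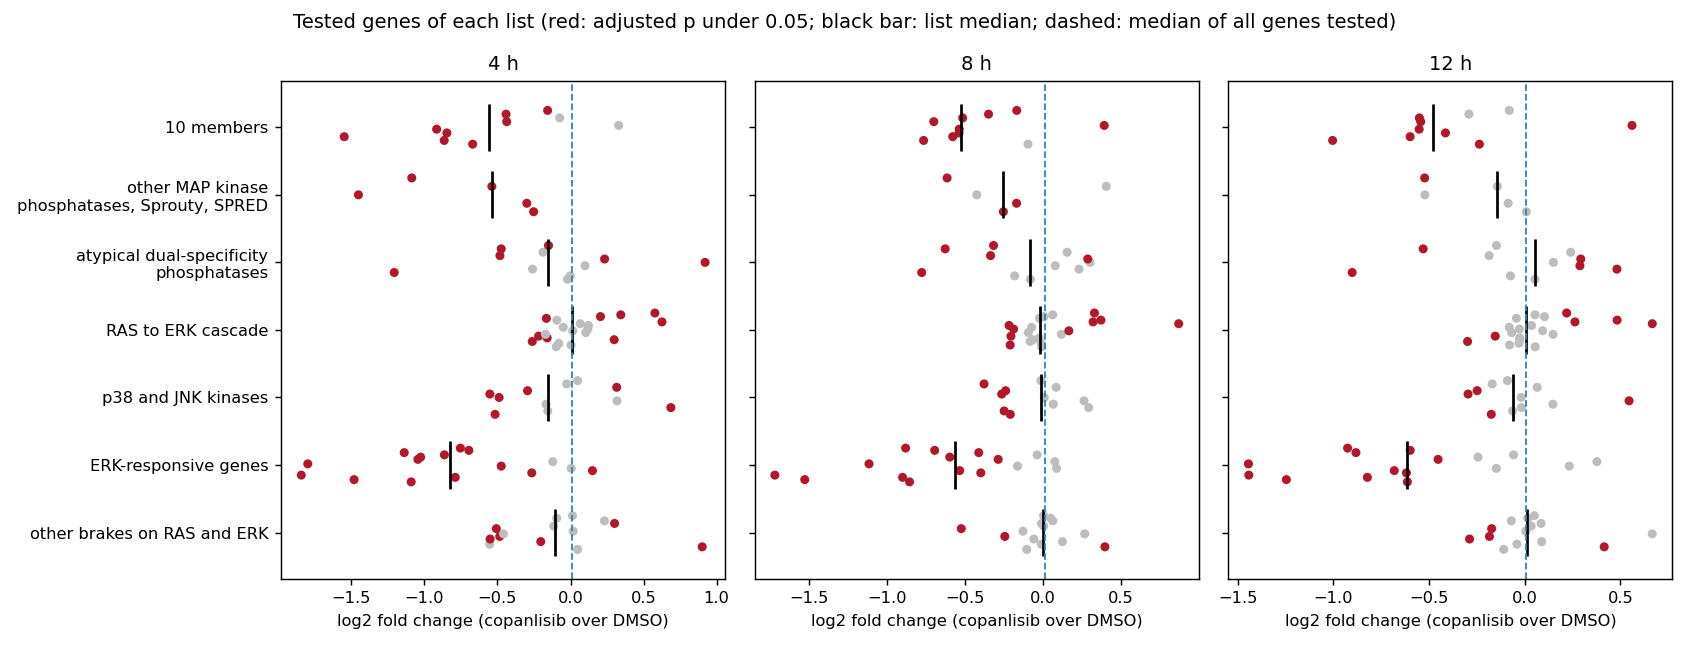
Log2 fold change of copanlisib over DMSO (horizontal axis) for the tested genes of each list at 4, 8 and 12 h, with red points at an adjusted p under 0.05, a black bar at the median of the list and a dashed line at the median of all genes tested. The medians of the 10 inhibitors (−0.56, −0.53 and −0.48) and of the ERK-responsive genes lie left of the dashed line, while that of the RAS to ERK cascade lies on it.

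Patterns over the 18 libraries were compared by Pearson's r of log2 CPM, as a description, since the libraries share 6 groups and their scaling. Among the 10 genes, DUSP2 and DUSP4 were the most alike (r = 0.93), followed by DUSP5 with SPRED1 (0.89) and DUSP5 with DUSP10 (0.88). DUSP6 had a negative r with every other member except SPRY2 (0.10), the lowest with DUSP5 (−0.79). Outside the 10 genes, and among protein-coding genes with a mean log2 CPM of at least 3, DUSP4 was most like SPRY4 (r = 0.97), RRP7A (0.96) and ATAD3A (0.95). The nearest genes to DUSP2 were SCARF1, SREBF1 and IER2 (0.98 each), those to DUSP5 were RGS16, SLC25A33 and NR4A1 (0.98 each), those to DUSP10 were SELENOI (0.94), FOSL1 and MTPAP (0.93 each). Those to SPRED1 were SLC38A5 (0.97), NHSL1 and PSME3 (0.96 each). The same rule named no neighbours for genes that were not called at all 3 times.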

How the data were processed

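The authors deposited, for each of 18 libraries, a table of raw read counts per gene (60483 Ensembl identifiers, 4 summary lines, counts without strand and per strand). CASAVA 1.7, STAR 2.5.2b and hg38 are named per the submitters' processing notes; for the annotation, no version is given in the sources used here. Groups, times and replicate numbers came from the labels. The TruSeq RNA kit named in the labels is not a strand-marking kit, but 94.3% to 95.3% of stranded reads lay in the last column, which was used here. Summary lines stayed out of library sizes and tests; the remaining reads were 67.5% to 75.2% of all reads, and multiply mapped reads were left uncounted by the authors.

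Identifiers were named by a gene name table (56321) or GENCODE 29 (432), and 3730 had no name; exon lengths are from GENCODE 29. With R 4.3.3 and edgeR 4.0.16 (limma 3.58.1), genes were filtered by filterByExpr, scaled by TMM and fitted with a mean per group over all 18 libraries (glmQLFit, glmQLFTest, two-sided, Benjamini-Hochberg over 16122 genes). CPM use the TMM-scaled library sizes. The steps were tested on simulated data with few changed genes and replicates that varied alike in all groups. Such data do not cover libraries that differ as those of copanlisib at 4 h did. Gene counts of 35 to 89 reads, as for DUSP6, carry counting error that limits precision.

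The members and lists were chosen with earlier results of these data known. Named are the 10 members, up to 3 genes per list with the smallest p for copanlisib against DMSO, SPRY4, MAPK3 and EGR1, and the 3 genes nearest in pattern to each member called at all 3 times; a further gene of the rule is not reported here. Alternatives were DESeq2 size factors, no filter, DESeq2 1.42.0, counts without strand, a replicate block, only the 6 libraries of a time, each library left out, and copanlisib 4 h replicates 1 and 2 left out together.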

Additional observations from a re-analysis of the deposited data

Results flagged for a closer look

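The effect of copanlisib differed between times for 5 of the 10 genes, by the edgeR test of the difference itself (threshold adjusted p of 0.05), and the 8 h and 12 h differences share the 4 h libraries. The difference of the log2 fold changes was 0.57 (8 h minus 4 h) and 0.43 (12 h minus 4 h) for DUSP1, 0.97 and 0.95 for DUSP2, 0.31 and 0.43 for DUSP4, and 0.38 and 0.36 for DUSP5, all less negative later. For SPRED2 it was −0.44 and −0.48, more negative later. Without replicates 1 and 2 of copanlisib at 4 h, DUSP2, DUSP5 and SPRED2 passed the threshold in both differences and DUSP1 for 8 h minus 4 h. Groups held 3 libraries, so single libraries were not tested as outliers.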

How the results depend on the processing

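Of 370 recomputed values for the 10 genes in copanlisib against DMSO, 341 kept their direction and side of the threshold, 27 lost a call, 2 gained one and 0 reversed. The call of DUSP6 at 8 h, the 1 gene higher at that time, was lost (count 0) with DESeq2 size factors, no filter, DESeq2, counts without strand and the replicate block, and when each library of that time was left out (0 to 0). With no filter, 2 genes were lower between 12 and 4 h of copanlisib instead of 4. Without copanlisib 4 h replicates 1 and 2, 2 genes instead of 4 had a less negative effect at 12 h than at 4 h. That fit also reversed uncalled differences: for 8 h minus 4 h DUSP6 (−0.18), SPRY1 (−0.012) and SPRY2 (0.018), and for 12 h minus 4 h DUSP6 (−0.011) and DUSP10 (0.080). It called 1506 genes higher at 4 h, and 228 lower and 181 higher for 8 h minus 4 h, and 453 and 447 for 12 h minus 4 h. With only the 6 libraries of 4 h, 2127 genes were lower and 1606 higher. Over single left-out libraries, genes called with a negative difference numbered 861 to 3286 for 8 h minus 4 h and 748 to 2846 for 12 h minus 4 h. Those with a positive difference numbered 680 to 3067 and 754 to 2935. Of the 10 genes, 1 to 2 had a more negative effect at 8 h than at 4 h. Counts moved by over 1.5 times without copanlisib 4 h replicates 1, 2 or 3 or DMSO 4 h replicate 3 in both, without DMSO 8 h replicate 2 for 8 h, without DMSO 12 h replicate 1 for 12 h, and among the 10 genes without copanlisib 8 h replicate 2 (SPRED1 called). Uncalled values that changed sign ranged over the fits without 1 library from −0.061 to 0.19 for DUSP6, −0.053 to 0.019 for SPRY2 and −0.0014 to 0.19 for DUSP10 (8 h minus 4 h), −0.24 to 0.0058 for DUSP10 (12 h minus 4 h), −0.16 to 0.0074 for SPRY1 (copanlisib, 12 h against 4 h), −0.058 to 0.072 for MAPK3 and −0.10 to 0.16 for RASGRP2 at 4 h, and −0.0024 to 0.024 for DUSP16 at 12 h, which was −0.00043 without strand. Without copanlisib 4 h replicates 1 and 2 together, MAPK3 (0.15) and RASGRP2 (0.36) were called higher at 4 h. The cause of these changes was not tested.

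Between copanlisib and DMSO, libraries of the same replicate number had deviations from their group means that correlated by 0.18, 0.0095 and 0.40 for 4 h. For 8 h the 3 values were 0.059, 0.034 and 0.071, and for 12 h −0.098, −0.020 and −0.20. Between 12 and 4 h they were 0.096, 0.21 and 0.25 for DMSO and −0.29, 0.098 and −0.089 for copanlisib. Libraries of different numbers were not compared, so whether replicate numbers pair the samples was not tested. With the replicate block, 8, 8 and 8 of the 10 genes were lower at 4, 8 and 12 h; SPRY1 was called at 12 h (−0.30, edgeR adjusted p = 0.046) and between 12 and 4 h of DMSO (−0.25, 0.049), DUSP10 between 12 and 4 h of copanlisib (−0.34, 0.033), and DUSP6 at 8 h was not (0.40, 0.059).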
